A study of Mus musculus with 15 samples.

Results

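The experiment described here is the comparison of cultured mouse B cells by the stimulus named in the library titles. Its members were the 9 of 15 libraries titled LPS, CpG or CD40, 3 of each, carrying the letters A, B and C. RNA sequencing was done on naive splenic B cells of wild-type (WT) male mice, 3 months old, that had been immunised with sheep red blood cells for 9 days. After sorting they were kept for 5 days in KO-DMEM medium made for embryonic stem cells. The protocol names LPS at 25 µg/ml, CpG at 2 µM and anti-CD40 antibody at 5 µg/ml, with interleukin-4 (IL-4) at 80 ng/ml. From its wording it is unclear whether LPS and CpG cultures also received IL-4, and no library was cultured without a stimulus. All 9 libraries share genotype, sex, immunisation, medium and culture time. The other 6 libraries are uncultured germinal centre (GC) and naive B cells, 3 of each. They were left out of the main fit and served to compare levels and profiles, and in an alternative fit. The cells came from 3 x 2 individual mice, and the labels tie neither a title nor a letter to an animal.

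Of the receptors at issue, CD40 is a TNF receptor family member that binds CD40 ligand on helper T cells and signals through TRAF adaptors to NF-kB. TLR4, with MD-2 and CD14, senses bacterial LPS at the cell surface, and TLR9 senses unmethylated CpG DNA in endosomes. In mouse B cells all of these drive division and survival, and the Toll-like ligands also drive antibody secretion. IL-4 directs switching to IgG1 and IgE and raises the low-affinity IgE receptor CD23, encoded by Fcer2a.

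The libraries did not group by title. Each of the 9 libraries correlated best, across the log2 CPM (counts scaled to library size) of 15727 genes, with a library of its own letter. The correlations were 0.954 to 0.981 within a letter and 0.928 to 0.955 within a titled stimulus. Letter held 54.2% of the summed variance and titled stimulus held 16%. Both shares include noise between libraries, which was not taken off. In the same model 6919 genes differed between letters (44% of those tested), while 79 differed between titled stimuli (0.502%). What the titled stimulus stands for is therefore uncertain, and each difference below is one between libraries with those titles. Whether the title marks the stimulus and the letter the replicate, or the other way round, cannot be told apart from the labels and files. In the second case the contrasts below would compare replicates, and the letter block would hold the stimulus. The library CD40 C stood apart from the other letter C libraries on the first component, at 94.4 against 36.2 for LPS C and 45.6 for CpG C. Totals of the 9 libraries ran from 25397624 to 36272197 counts.

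**Figure D1:**
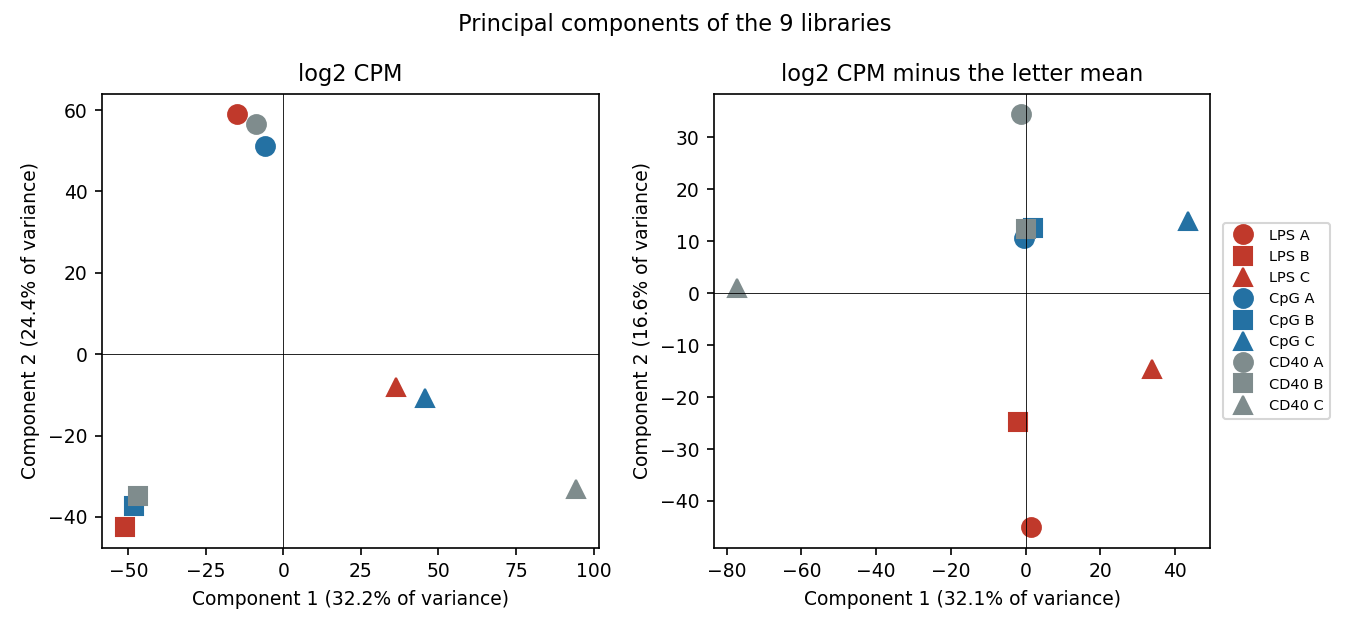
Each point is 1 library, placed by its first 2 principal component scores from log2 CPM (left) and from log2 CPM after the mean of its letter was removed (right); colour gives the titled stimulus and shape the letter. The left panel shows 3 clusters by letter, with the colours mixed inside them, and CD40 C at 94.4 on the first component.

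Titled stimuli were compared within letters, with the letter as a block, by the quasi-likelihood test of edgeR. Its p-values were adjusted by Benjamini-Hochberg over all 15727 genes, with a threshold of 0.05. A gene is called below when it passed. LPS against CD40 gave 44 calls (0.28% of genes tested), of which 23 were higher in LPS (0.146%) and 21 lower (0.134%). CpG against CD40 gave 27 calls (0.172%), with 12 higher in CpG (0.0763%) and 15 lower (0.0954%). LPS against CpG gave 45 calls (0.286%), with 20 higher in LPS (0.127%) and 25 lower (0.159%). At least a 2-fold difference was reached by 6 of the higher and 7 of the lower genes for LPS against CD40, by 4 and 7 for CpG against CD40, and by 5 and 3 for LPS against CpG. Every called gene differed in the same direction in all 3 letters. The median 95% half-width of a fold change was 0.32 on the log2 scale.

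The counts moved with single libraries. LPS against CD40 gave 85 calls without CpG C, 70 without CpG A, 29 without CD40 B, 26 without LPS A and 23 without all of letter A. CpG against CD40 gave 43 without LPS C. LPS against CpG gave 28 without letter A and 81 without letter C, and the test over all titles gave 40 without letter A. Without CD40 C the 3 contrasts gave 39, 24 and 65 calls. Without the letter block, which removes the spread between letters, edgeR gave 3, 2 and 0 calls, and 71 of the 76 calls of named genes were lost.

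Klhdc1, a kelch-domain gene at chr12:69241176-69284632 on the plus strand of GRCm38, had the smallest p over the titles. It stood at 67.7, 91.3 and 59.9 CPM in LPS A, B and C, at 19.1, 24 and 14.7 CPM in CpG, and at 39.2, 57.6 and 33.2 CPM in CD40. Every LPS library lay above every CD40 library, and every CD40 library above every CpG library. The log2 fold changes were 0.77 ± 0.09 for LPS against CD40 (SE, edgeR adjusted p = 1.83e-05), -1.16 ± 0.10 for CpG against CD40 (1.82e-08) and 1.93 ± 0.10 for LPS against CpG (1.44e-12). Within letters A, B and C the LPS to CpG difference was 1.82, 1.93 and 2.02. Title held 87.9% of this gene's variance and letter 11.8%, against 16% and 54.2% over all genes. A high title share follows from naming the gene by its p over titles, and is no separate result.

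Slc15a2 encodes the proton-coupled peptide transporter PEPT2. Its level was 18.3, 12.8 and 11.7 CPM in LPS, 21.5, 22.1 and 21.8 CPM in CpG, and 61.7, 52.7 and 41.1 CPM in CD40. All CD40 libraries were above all others. The log2 fold change was -1.87 ± 0.13 for LPS against CD40 (edgeR adjusted p = 1.28e-09) and -1.23 ± 0.13 for CpG against CD40 (1.1e-06). Klk1b22, a kallikrein-related peptidase gene, likewise averaged 7.77 ± 1.51 CPM in LPS, 6.14 ± 1.77 CPM in CpG and 18.8 ± 6.57 CPM in CD40 (SD, n = 3 each). Its call for LPS against CD40 was lost without letter B (log2 fold change -1.06, edgeR adjusted p = 0.0781).

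Bcl2a1d belongs to the mouse A1 group of BCL2 relatives, which protect lymphocytes from apoptosis and are NF-kB targets. It measured 296, 454 and 251 CPM in LPS A, B and C, 197, 355 and 205 CPM in CpG, and 169, 273 and 147 CPM in CD40. The ranges overlapped, because letter B was high in every title, but LPS was the highest and CD40 the lowest in each letter. The log2 fold changes were 0.77 ± 0.06 for LPS against CD40 (edgeR adjusted p = 2.31e-08), 0.36 ± 0.06 for CpG against CD40 (0.00373) and 0.41 ± 0.06 for LPS against CpG (0.000728). The CpG against CD40 call was lost without CpG C (0.0642), without letter B (0.133) and without letter C (0.0525), and the LPS against CpG call without letter A (0.0673).

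Bcl2a1d has near-identical neighbours on chromosome 9, and their coding starts are shown because reads from such genes are hard to assign. Below are coding positions 1 to 150 of the GENCODE M21 transcripts, 5′ to 3′, with the 7 positions at which any of the 3 differ in capitals.
Bcl2a1d: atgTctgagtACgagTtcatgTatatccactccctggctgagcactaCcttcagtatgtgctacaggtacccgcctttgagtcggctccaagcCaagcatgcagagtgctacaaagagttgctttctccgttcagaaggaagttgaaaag
Bcl2a1a: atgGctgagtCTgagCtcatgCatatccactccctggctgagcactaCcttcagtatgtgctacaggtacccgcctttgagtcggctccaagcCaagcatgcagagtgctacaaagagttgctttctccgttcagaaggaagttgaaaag
Bcl2a1b: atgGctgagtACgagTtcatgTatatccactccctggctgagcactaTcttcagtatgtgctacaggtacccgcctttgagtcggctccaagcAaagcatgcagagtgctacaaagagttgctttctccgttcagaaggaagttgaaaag
Over 516 coding bases Bcl2a1d differed from Bcl2a1a at 7 and from Bcl2a1b at 6. Bcl2a1a averaged 14.6 ± 8.11 CPM in LPS, 10.8 ± 6.72 CPM in CpG and 8.57 ± 3.10 CPM in CD40, with no call in any contrast. With the counts of all 3 genes summed, the log2 fold change of LPS against CD40 was 0.72 (edgeR adjusted p = 7.92e-08), with levels of 334, 527 and 276 CPM in LPS and 194, 326 and 171 CPM in CD40.

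Slamf1 (CD150, a homophilic adhesion receptor of the SLAM family) and Tlr9 were called near the threshold. Slamf1 measured 26.2, 24.8 and 12.8 CPM in LPS, 15.8, 14.3 and 8.24 CPM in CpG, and 19.6, 10.9 and 7.47 CPM in CD40. LPS was the highest title in each letter, though the ranges overlapped. Its log2 fold change was 0.78 ± 0.16 for LPS against CD40 (edgeR adjusted p = 0.0289) and 0.72 ± 0.16 for LPS against CpG (0.0495). The first call was lost without any 1 of LPS A (0.0891), LPS B (0.194), LPS C (0.0572), CD40 B (0.255) or CD40 C (0.0591), and without letter A (0.0616) or letter B (0.45). The second was lost without any 1 LPS or CpG library, at edgeR adjusted p of 0.068 to 0.465, and missed the threshold under RLE size factors (0.0515).

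Tlr9, the CpG DNA receptor, was lower in LPS. It stood at 15.6, 17.2 and 21.2 CPM in LPS, at 31.5, 25.5 and 25.7 CPM in CpG, and at 26.0, 23.7 and 33.3 CPM in CD40. No LPS library reached the lowest CpG or CD40 library, while CpG and CD40 overlapped. The log2 fold change was -0.62 ± 0.14 against CD40 (edgeR adjusted p = 0.0491), -0.63 ± 0.14 against CpG (0.0435) and 0.01 ± 0.13 for CpG against CD40 (0.995). The LPS against CD40 call was lost without any 1 LPS or CD40 library (0.0572 to 0.367) or any letter (0.074 to 0.239), and the LPS against CpG call without LPS A (0.539), LPS B (0.0576), CpG A (0.603), CpG B (0.171), letter A (0.873) or letter B (0.124). Among 36 tested genes of Toll-like receptors and their signalling, Tlr9 was the only one called over the titles, while 25 differed between letters. Over all genes tested these shares were 0.502% and 44%.

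**Figure D2:**
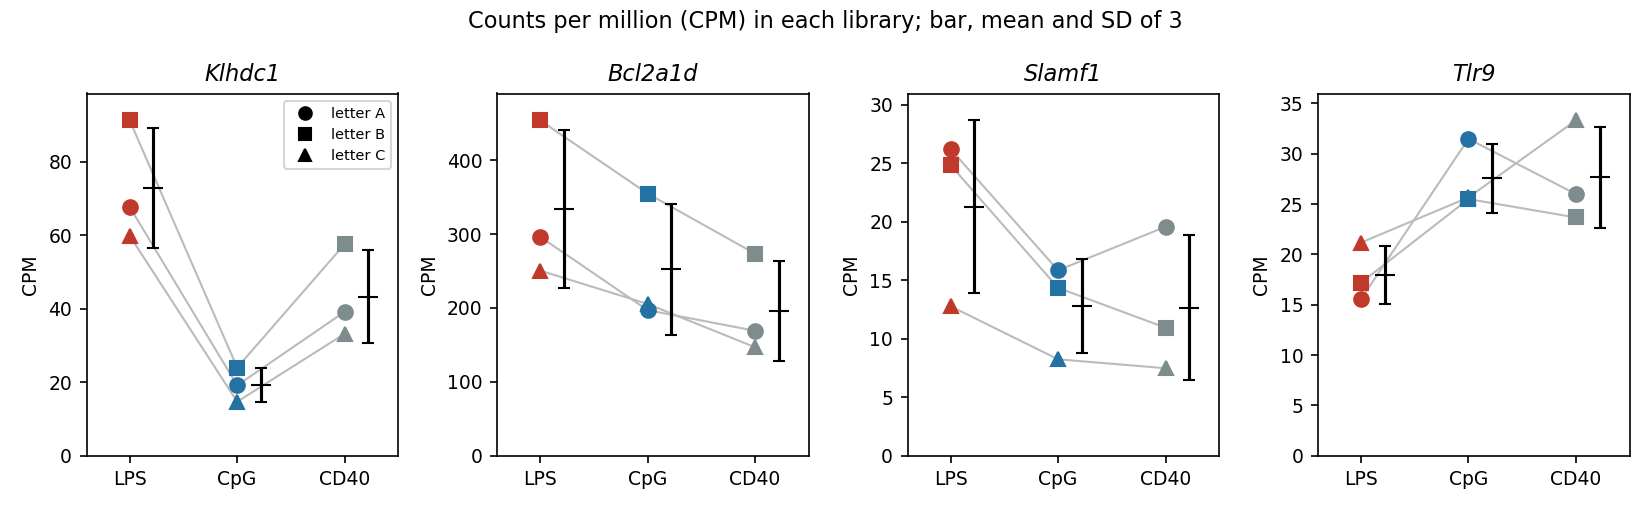
CPM (linear axis from 0) of Klhdc1, Bcl2a1d, Slamf1 and Tlr9 in the 9 libraries by titled stimulus; grey lines join libraries of 1 letter, and black bars give the mean and SD of 3 libraries. Klhdc1 separates the titles completely, whereas Bcl2a1d and Slamf1 overlap between titles. Within each letter LPS is the highest title for both, and the order of CpG and CD40 is the same in all letters for Bcl2a1d but not for Slamf1.

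The receptors and targets that the 3 stimuli are known for were, apart from Tlr9 and Bcl2a1d, not called by title. Cd40 itself averaged 96.5 ± 29.6 CPM in LPS, 94.8 ± 26.5 CPM in CpG and 94.9 ± 24.4 CPM in CD40 (SD, n = 3 each). Its 95% interval for LPS against CD40 was -0.14 to 0.17 on the log2 scale. Tlr4 was low, at 0.721, 2.09 and 4.85 CPM in LPS, 1.28, 1.72 and 3.75 CPM in CpG, and 0.984, 1.45 and 7.63 CPM in CD40, and its interval for LPS against CD40 ran from -1.03 to 0.61. Both belong to a panel of 24 genes of these pathways. The panel, from Tlr7 and Traf1 to Prdm1 and the switched constant regions, had no call in any contrast with edgeR. Of all genes tested edgeR called 0.28%, 0.172% and 0.286% in the 3 contrasts. At an unadjusted p under 0.05 the panel held 7, 1 and 6 genes, DESeq2 called 0 in each, and limma voom called 2, 0 and 1. Over all genes tested 9.03%, 6.07% and 6.81% had such an unadjusted p. All 24 were called between letters, against 44% of all genes tested. Their 95% intervals lay within 1 log2 unit of 0 for 21 genes in LPS against CD40, 23 in CpG against CD40 and 23 in LPS against CpG. The lack of a call does not exclude differences inside these intervals. Some intervals did not include 0, such as that of Bcl2a1a for LPS against CD40 (0.30 to 1.09).

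The levels of these genes followed the letter. Fcer2a (CD23), an IL-4 target, measured 974, 181 and 158 CPM in LPS A, B and C, 882, 179 and 154 CPM in CpG, and 958, 181 and 149 CPM in CD40. The 3 titles lay close together within each letter, and letter A was far above B and C. Letter held 99.9% of its variance. Ighe, the IgE constant region, measured 225, 202 and 202 CPM in the LPS, CpG and CD40 libraries of letter B, below every library of A and C. Prdm1, which encodes the plasma cell regulator BLIMP-1, measured 57.7, 77.8 and 78.1 CPM in those of letter C and at most 11.5 CPM elsewhere. The intervals for LPS against CD40 were -0.08 to 0.15 for Fcer2a, -0.07 to 0.20 for Ighe and -0.48 to 0.20 for Prdm1.

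Across gene lists calls by letter outnumbered calls by title, as they did over all genes tested (44% against 0.502%). No call over titles in a list of this size lies near that 0.502%. Of 30 tested genes of CD40 and TNF receptor signalling none was called over titles by edgeR (5 at an unadjusted p under 0.05, 1 by DESeq2 and 0 by limma voom) and 26 were called over letters. For NF-kB inhibitors and targets the counts were 0 and 25 of 29, for type I interferon response genes 0 and 31 of 31, for germinal centre B cell genes 0 and 23 of 23, and for the unfolded protein response 0 and 26 of 27. At an unadjusted p under 0.05 over titles these lists held 9, 2, 4 and 4 genes, and DESeq2 and limma voom called 0 in each. Over all 15727 genes tested 1326 had such an unadjusted p with RLE size factors. Ccl22, a chemokine of the NF-kB list, had an edgeR adjusted p of 0.161 over titles and was called without LPS C (0.00329), CD40 A (0.0367), CD40 B (0.00276) or letter C (7.76e-05), with immunoglobulin genes left out (0.0223) and with no filter on low counts (1.09e-09). Single members were called in the IL-4 list (Slamf1 of 22), the BCL2 family (Bcl2a1d of 20), the plasma cell list (Jchain of 24) and the immediate early list (Fosl2, an AP-1 subunit, of 27). Fosl2 was called for LPS against CpG, at 15.7, 115 and 30.7 CPM in LPS and 19.5, 149 and 44.9 CPM in CpG (log2 fold change -0.42 ± 0.09, edgeR adjusted p = 0.0241). That call was lost without any 1 CpG library (0.0515 to 0.125), without LPS B (0.168), LPS C (0.171), letter B (0.717) or letter C (0.0942), and under limma voom (0.145). The 37 glycolysis and hypoxia genes had a median log2 fold change of 0.142 for CpG against CD40 and -0.138 for LPS against CpG, with none called over titles by edgeR and 35 over letters. Of these 37 genes 19 had an unadjusted p under 0.05 over titles, DESeq2 called 6 and limma voom 2. Over all genes DESeq2 called 130 of 11458 and limma voom 160 of 15727. In LPS against CD40, CpG against CD40 and LPS against CpG, 4, 17 and 16 of the 37 had such an unadjusted p. Over all genes tested these shares were 9.03%, 6.07% and 6.81%, so this list held more such genes in the 2 contrasts with CpG. Cell cycle lists had no call over titles by edgeR, DESeq2 or limma voom (5 S phase and 4 G2 and M phase genes at an unadjusted p under 0.05), with 31 of 38 S phase genes and 27 of 36 G2 and M phase genes called over letters.

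**Figure D3:**
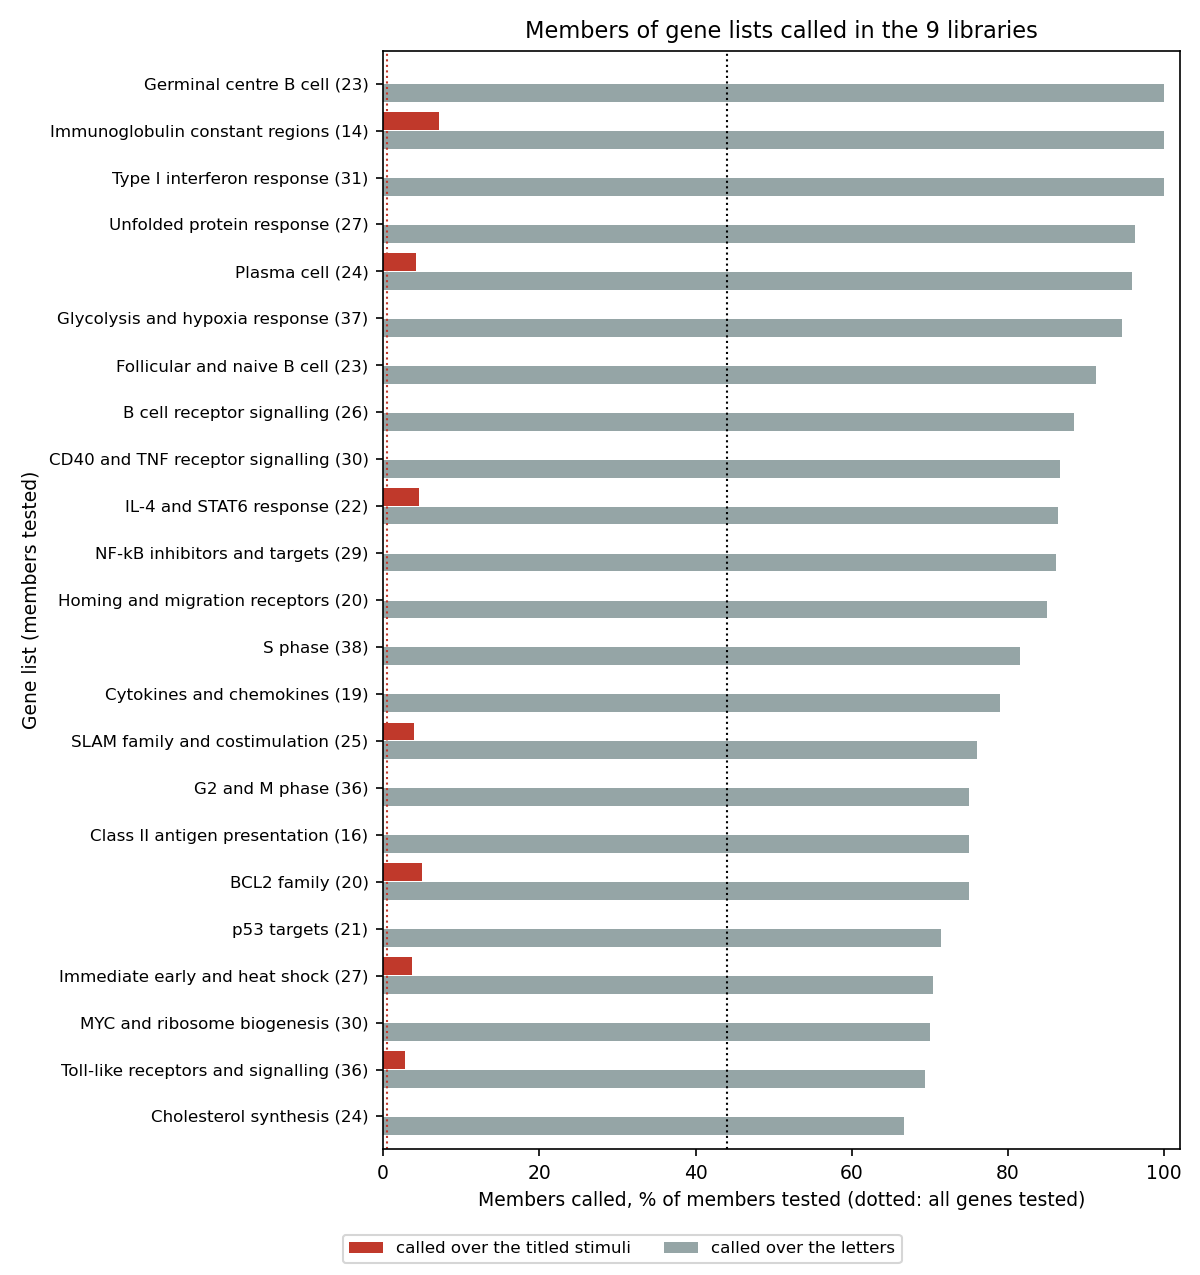
Bars give the members of each gene list called over the titled stimuli (red) and over the letters (grey) as a percentage of members tested, whose number is in brackets; dotted lines mark all genes tested, at 0.502% and 44%. In every list shown the letter bar is longer than the title bar, and most lists have no member called over titles.

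A group of immunoglobulin segments was lower in LPS. Of 244 tested immunoglobulin segments, 11 were among the 79 genes called over titles (4.51%, against 0.419% of protein-coding genes). For LPS against CpG 9 were lower and 0 higher, with a median log2 fold change of -0.317, and for LPS against CD40 6 were lower and 0 higher, with a median of -0.219. CpG against CD40 had 0 called by edgeR or DESeq2 and 2 by limma voom, with 24 at an unadjusted p under 0.05 and a median of 0.101. Of all genes tested 6.07% had such an unadjusted p. Over all genes the medians of the 3 contrasts lay within 0.0108 of 0. Within letters the LPS to CpG median was -0.223 in A, -0.025 in B and -0.608 in C. The share of all counts on immunoglobulin genes was 1.85% in LPS A, 1.16% in LPS B and 5.06% in LPS C, against 1.93%, 1.2% and 8% in CpG and 1.90%, 1.18% and 7.19% in CD40. LPS had the lowest share and CpG the highest in each letter, and letter C was above A and B in every title. An exact permutation of titles within letters gave p = 0.0278, the smallest that this design allows, and leaving out any letter raises that smallest p to 0.167.

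Ighv2-5, a heavy chain variable segment, measured 5.90, 5.11 and 32.6 CPM in LPS A, B and C, 12, 9.13 and 59.7 CPM in CpG, and 10.9, 7 and 50.9 CPM in CD40. LPS was the lowest title in each letter. Its log2 fold change for LPS against CpG was -0.91 ± 0.13 (edgeR adjusted p = 0.000634), and 0.0626 without letter C. Jchain, which links IgM and IgA into polymers, measured 68.8, 17.6 and 1527 CPM in LPS, 113, 18.8 and 2823 CPM in CpG, and 85.9, 16.8 and 2122 CPM in CD40. LPS was the lowest title in letters A and C, and the titles were close in letter B. The log2 fold change for LPS against CpG was -0.63 ± 0.10 (edgeR adjusted p = 0.015), and the call was lost without LPS A (0.308), CpG A (0.66), CD40 A (0.138), CD40 C (0.0556), letter A (1) or letter C (0.0733), and under DESeq2 (0.13). Fewer secreting cells and less RNA per cell cannot be told apart in such bulk libraries. The Ighm interval for LPS against CpG was -0.73 to -0.12 without a call (edgeR adjusted p = 0.518).

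Genes with near-identical copies were frequent among the calls over titles, though Klhdc1, the gene with the smallest p, had none. A copy here is another gene whose transcript matches at 95% identity or more over at least 200 bases and 50% of the shorter transcript. Copies were found for 31 of the 79 genes called over titles (39.2%), against 17% of all genes tested and 14.4% of those called over letters, and for 10 of the 12 genes with the smallest p. How the authors' counting treated reads that fit several places is not given in the sources used here, so the split of counts between such genes is uncertain. Klhdc1, Slc15a2, Tlr9 and Slamf1 had no copy by this measure. The sums given in this report add only the genes named with them. Copies found numbered 5 for Rpl34, 4 for Bcl2a1d, 4 for Xlr3b, 2 for Mid1 and 2 for Capza1, so each sum left out copies.

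Capza1, the alpha subunit of the actin capping protein on chromosome 3, and Gm3608, a pseudogene on chromosome 1 that copies it, moved in opposite directions. Their transcripts matched at 99.5% identity over 2859 bases. The window below covers coding positions 641 to 760 of Capza1 (minus strand of chr3:104822779-104864505) and the matching bases of Gm3608 (plus strand of chr1:105455971-105458829), with the 2 differing bases in capitals.
Capza1: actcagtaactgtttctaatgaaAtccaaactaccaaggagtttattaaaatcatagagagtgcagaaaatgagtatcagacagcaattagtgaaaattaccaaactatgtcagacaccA
Gm3608: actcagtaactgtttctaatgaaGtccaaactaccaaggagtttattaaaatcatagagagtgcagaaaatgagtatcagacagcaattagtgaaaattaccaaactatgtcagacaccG
Capza1 stood at 128, 107 and 145 CPM in LPS, 101, 92.4 and 105 CPM in CpG, and 159, 147 and 175 CPM in CD40. Gm3608 stood at 99.0, 116 and 115 CPM in LPS, 141, 128 and 151 CPM in CpG, and 67.8, 66.3 and 71.4 CPM in CD40. In CpG libraries Capza1 was the lowest and Gm3608 the highest of the titles, and in CD40 libraries the order was reversed, with no overlap between titles for either gene. The log2 fold changes for CpG against CD40 were -0.69 ± 0.07 (edgeR adjusted p = 3.59e-07) and 1.03 ± 0.07 (1.29e-09). With both counts summed the levels were 227, 222 and 259 CPM in LPS, 242, 220 and 256 CPM in CpG, and 227, 213 and 247 CPM in CD40. The summed log2 fold change for CpG against CD40 was 0.06, with a 95% interval of -0.05 to 0.18, and none of the contrasts was called.

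Rpl34, a large ribosomal subunit protein on chromosome 3, and its processed pseudogene Rpl34-ps1 on chromosome 6 also moved in opposite directions for CpG against CD40. The first 150 coding bases of Rpl34 (minus strand of chr3:130726831-130730398) and of the copy (plus strand of chr6:71124610-71124963) differ at 1 base, in capitals.
Rpl34: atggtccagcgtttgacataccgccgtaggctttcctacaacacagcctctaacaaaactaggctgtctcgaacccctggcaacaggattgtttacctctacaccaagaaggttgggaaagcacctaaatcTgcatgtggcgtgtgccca
Rpl34-ps1: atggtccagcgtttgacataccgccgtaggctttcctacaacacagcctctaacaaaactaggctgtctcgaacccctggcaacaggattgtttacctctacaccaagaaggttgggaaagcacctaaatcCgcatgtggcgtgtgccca
Rpl34 measured 439, 574 and 416 CPM in LPS, 257, 402 and 284 CPM in CpG, and 569, 690 and 451 CPM in CD40. The copy measured 171, 226 and 149 CPM in LPS, 207, 274 and 181 CPM in CpG, and 117, 150 and 91.4 CPM in CD40. In each letter CpG was the lowest title for Rpl34 and the highest for the copy. For CpG against CD40 the log2 fold changes were -0.86 ± 0.07 (edgeR adjusted p = 9.63e-09) and 0.89 ± 0.06 (7.45e-10). Here the sum, which left out other copies of Rpl34, did not level out, at -0.37 for CpG against CD40 (edgeR adjusted p = 0.00281). Rpl30, another large subunit protein with near-identical copies, was higher in CD40, at 330, 498 and 310 CPM in LPS, 338, 579 and 368 CPM in CpG, and 557, 778 and 474 CPM in CD40. The share of counts on ribosomal protein genes as a whole was 13.8% ± 2.36 in LPS, 13.0% ± 2.77 in CpG and 13.1% ± 2.77 in CD40 (SD, n = 3 each; exact permutation p = 0.361).

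Mid1, an X-linked ubiquitin ligase of microtubules, matched Mid1-ps1 on the Y chromosome at 99.9% identity over 719 bases. It stood at 9.63, 11.5 and 11.6 CPM in LPS, 11.5, 14.1 and 9.07 CPM in CpG, and 2.31, 2.46 and 1.85 CPM in CD40. All CD40 libraries were below all others, and the gene was not called between letters (edgeR adjusted p = 0.432). The log2 fold change was 2.32 ± 0.22 for LPS against CD40 (edgeR adjusted p = 6.68e-07) and 2.37 ± 0.22 for CpG against CD40 (2.85e-07). Adding the Mid1-ps1 counts left 2.15 and 2.14. Xlr3b, an X-linked lymphocyte-regulated gene, was higher in LPS than in CD40 (log2 fold change 1.31 ± 0.18, edgeR adjusted p = 0.000208). Its copy Xlr3a stood at 0.262 to 2.17 CPM in LPS, 0.774 to 1.78 CPM in CpG and 3.56 to 7.09 CPM in CD40, and their sum was not called (0.54, edgeR adjusted p = 0.278).

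**Figure D4:**
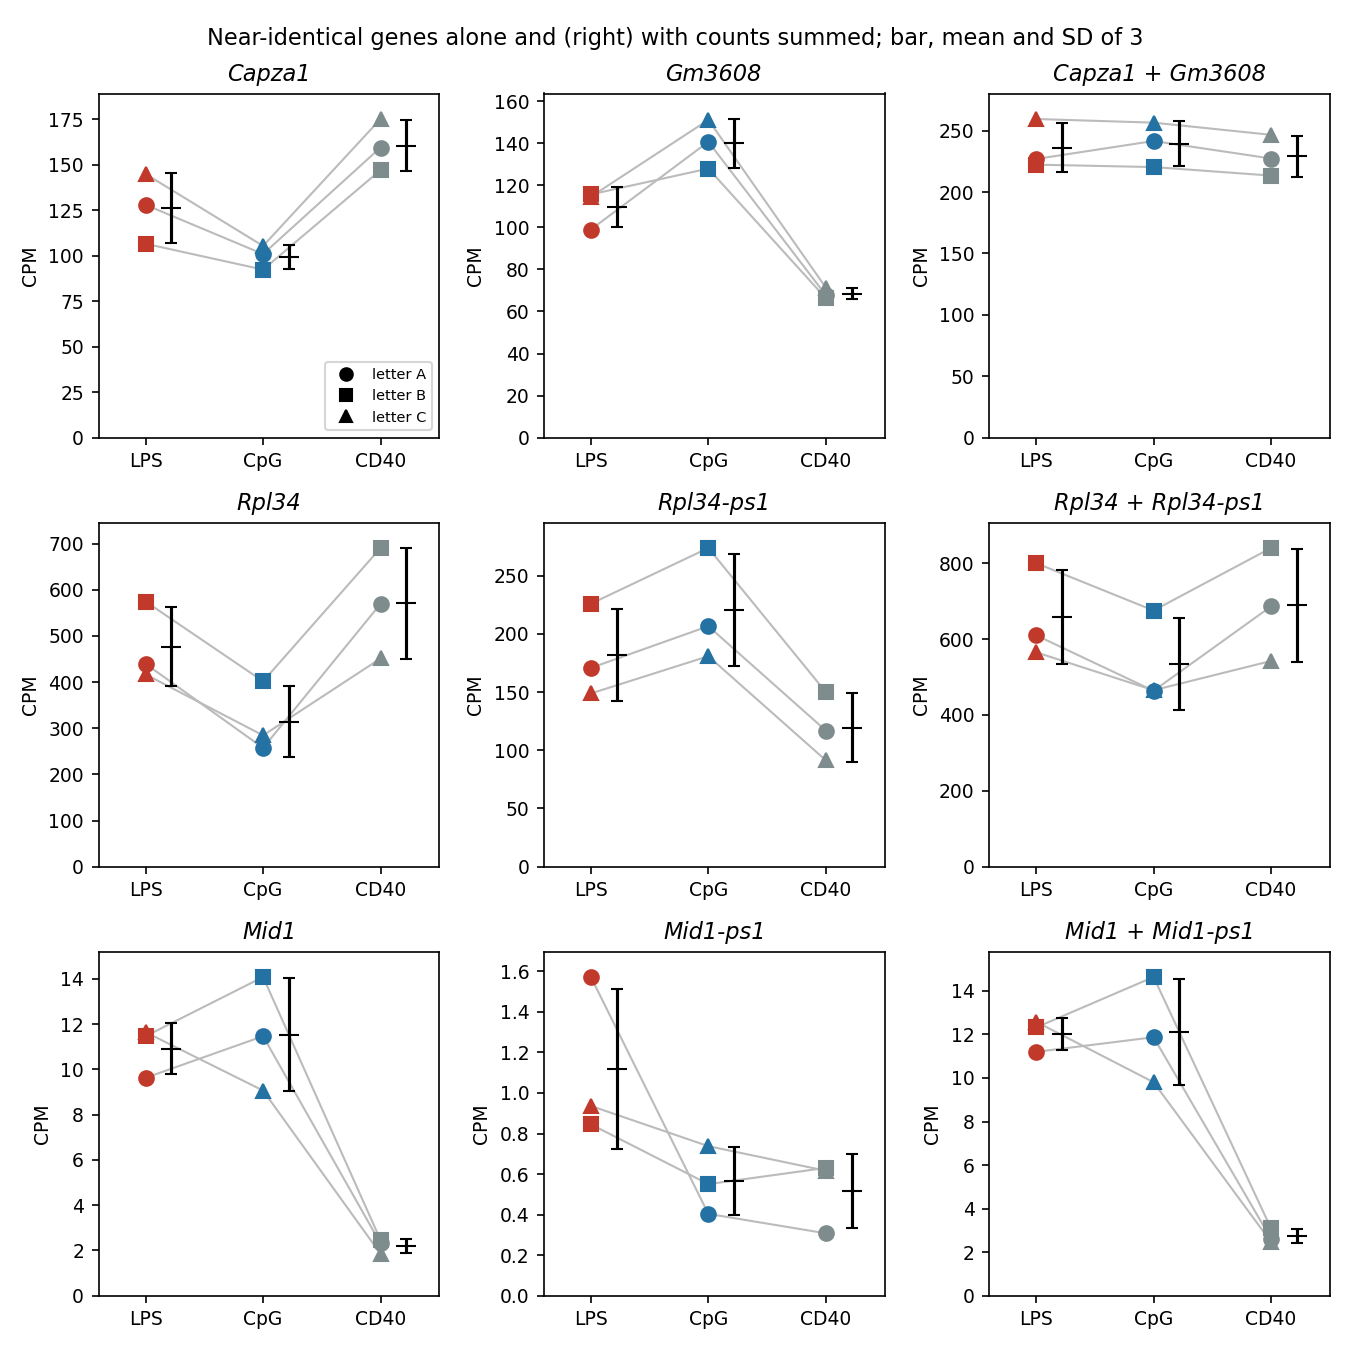
CPM (linear axes from 0) of Capza1 and Gm3608, Rpl34 and Rpl34-ps1, and Mid1 and Mid1-ps1, with the summed counts of each pair at the right, in the 9 libraries by titled stimulus; lines join libraries of 1 letter and black bars give mean and SD of 3. The opposite shifts of Capza1 and Gm3608 sum to nearly level values between 213 and 259 CPM, while the summed Mid1 pair stays low in CD40.

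Some non-coding genes of unknown role were called, though not at a higher share than all genes tested. Gm4316 stood at 7.96, 4.43 and 4.35 CPM in LPS, 51, 22 and 33.3 CPM in CpG, and 40.7, 21.3 and 27.0 CPM in CD40, and all LPS libraries were below all others. Its log2 fold change was -2.65 ± 0.14 for LPS against CpG (edgeR adjusted p = 3.67e-12). Gm42047 stood at 322, 332 and 201 CPM in LPS, 100, 132 and 90.1 CPM in CpG, and 241, 325 and 194 CPM in CD40, with all CpG libraries below the rest. Both have near-identical copies, 3 for Gm4316 and 4 for Gm42047, whose counts were not summed. By type, the 79 genes comprised 51 protein-coding genes, 11 immunoglobulin segments, 11 pseudogenes and 6 non-coding and other genes. These were 0.419%, 4.51%, 0.655% and 0.369% of the genes tested of each type, against 0.502% of all genes tested.

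The GC libraries, which entered neither the fit nor the choice of these genes, each had a profile over them that went with a different title. Over the 79 genes, the profile of each title (letter means removed) was correlated with each GC library (GC mean removed). LPS correlated with GC C at 0.641 and with A and B at -0.431 and -0.172. CpG correlated with GC B at 0.644 and with A and C at -0.391 and -0.196. CD40 correlated with GC A at 0.758 and with B and C at -0.405 and -0.439. Over all 15727 genes these 9 values lay between -0.071 and 0.079. The points are genes of the same libraries and are not independent, and the genes were chosen for differing between titles. Because means were removed from both sides, a positive correlation with a GC library forces a negative one with another. The 9 values are therefore not separate results.

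The genes that follow were picked from the 79 as examples, and not all of them went with this pattern. Capza1 measured 150, 112 and 203 CPM in GC C, B and A, and Gm3608 136, 182 and 109 CPM, so that the GC B library was lowest for the first and highest for the second, as CpG was. Mid1 stood at 11.8, 10.1 and 2.04 CPM in GC C, B and A, and Slc15a2 at 29.1, 28.3 and 65.8 CPM, so that GC A was low for Mid1 and high for Slc15a2, as CD40 was. Gm4316 stood at 2.97, 18.6 and 20.6 CPM, lowest in GC C, as in LPS. Klhdc1 did not follow, at 3.43, 5.81 and 7.10 CPM. Nor did Bcl2a1d, the highest in LPS within each letter, at 23.3, 25.9 and 25.8 CPM.

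Under the pairing of LPS with GC C, CpG with GC B and CD40 with GC A, taken after these values were seen, the highest title matched the highest GC library for 50 of the 79 genes (63.3%), against 33.1% of all genes tested. Among the 48 genes without a copy it did so for 28 (58.3%), and the correlations of the paired profiles were 0.372, 0.357 and 0.604. The naive libraries gave correlations between -0.292 and 0.334 over the 79 genes. Over the 48 genes they ran from -0.544 (LPS with naive A) to 0.377 (CD40 with naive A), a span that covers the first 2 of the paired GC values. The 79 genes also spread more among the 3 GC libraries, with a range over 1 log2 unit for 32.9% against 5.61% of all genes tested, at median levels of 66.5 and 16.2 CPM in the 9 cultured libraries. Among the 3 naive libraries the shares were 53.2% and 38.9%. Letter profiles of the 6919 letter genes correlated with the GC libraries at -0.185 to 0.229. The labels do not say what GC letters and culture titles share, and what they share was not tested.

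**Figure D5:**
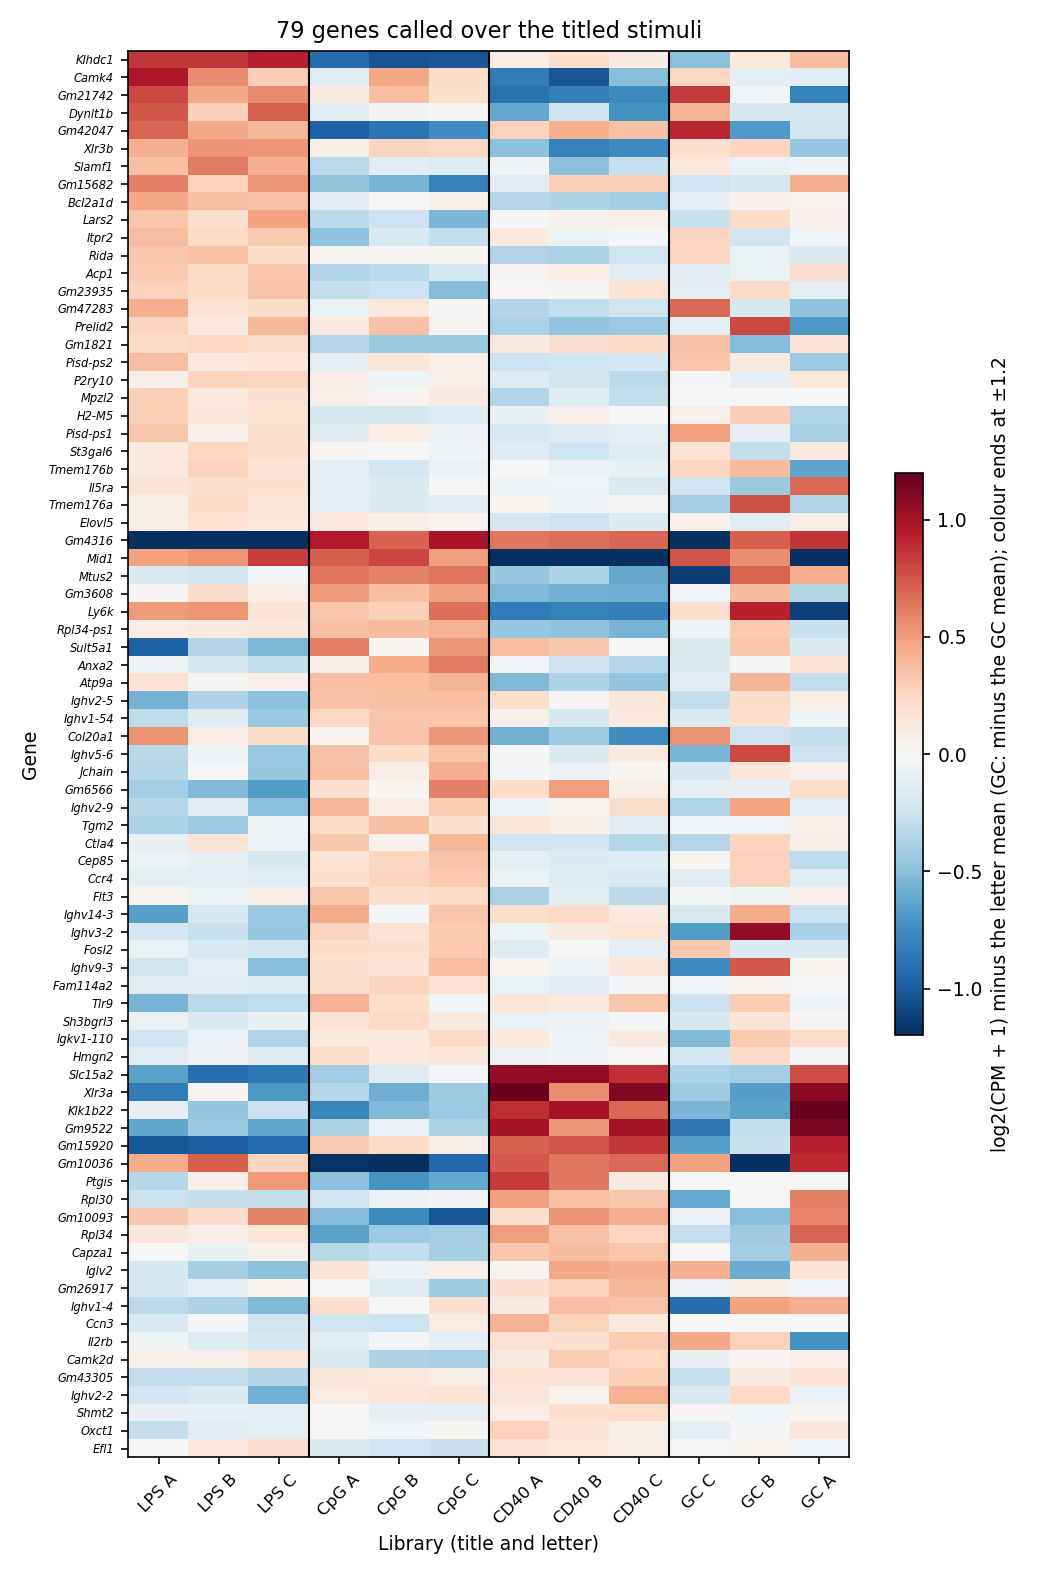
Rows are the 79 genes called over the titled stimuli and columns the 9 cultured libraries by title and letter, then the 3 GC libraries in the order C, B, A; colour gives log2(CPM + 1) minus the mean of the letter (for GC, minus the GC mean) and ends at 1.2 either way. Slc15a2, Klk1b22 and Gm15920 are high in CD40 and in GC A, Mid1 is low in both, and Gm4316 is low in LPS and in GC C.

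The cells carried B cell markers at like levels in each title, with summed CPM of 13960 to 15720 in LPS, 13780 to 15590 in CpG and 13950 to 16060 in CD40. Summed T cell markers were 31.3 to 40.0 CPM in LPS, 33.6 to 45.4 CPM in CpG and 34.9 to 41.6 CPM in CD40, with Themis at 0 in all 9 libraries. Summed monocyte and macrophage markers were 28.2 to 48.4, 28.8 to 47.0 and 31.6 to 46.2 CPM in the same order, with Csf1r, C1qb and C1qc at 0. Dendritic markers summed to 104 to 391 CPM in LPS, 113 to 446 CPM in CpG and 96.9 to 419 CPM in CD40. Their member Flt3, a growth factor receptor, was called for CpG against CD40, at 44.5, 202 and 64.3 CPM in CpG and 26.8, 163 and 43.5 CPM in CD40 (log2 fold change 0.52 ± 0.08, edgeR adjusted p = 0.00112, and 0.0519 without letter A). Clec9a, a marker of conventional dendritic cells, was at 0 throughout. Other members had counts enough to be tested: 5 of 9 dendritic, 5 of 12 T cell and 5 of 12 monocyte and macrophage markers. In GC libraries the dendritic, T cell and monocyte sums were 46.3 to 50.6, 162 to 174 and 10.6 to 17.1 CPM. Naive libraries had 8.35 to 16.7, 58.2 to 79.0 and 9.54 to 30.4 CPM in that order.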

How the data were processed

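The deposited table holds whole-number counts of reads per gene for 54838 Ensembl gene IDs in 15 libraries. Per the submitters' processing notes, the authors used STAR 2.7.10a, featureCounts 2.0.6 and DESeq2 with mm10/GRCm38. Libraries were strand-aware and poly(A)-selected, per the labels. Annotation release, strand setting and treatment of multi-mapping reads are not given in the sources used here. Symbols and coordinates came from GENCODE M21 on GRCm38.

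The 9 cultured libraries were fitted alone in R 4.3.3 with edgeR 4.0.16 (filterByExpr, TMM, robust glmQLFit, glmQLFTest, two-sided, Benjamini-Hochberg). The design had titled stimulus and letter. The letter served as a block because the libraries group by letter. Same-letter libraries deviated together from their title means in 9 of 9 pairs (correlations 0.415 to 0.56). These correlations do not show whether the letter marks a replicate or a stimulus. Intervals are 95%. CPM values use TMM library sizes of the 9 libraries, or of all 15 for GC and naive values. The labels do not show which libraries come from separate animals, and p-values therefore cover only the library spread, which may be technical. The common biological coefficient of variation was 16.4%.

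Near-identical transcripts were found with blastn 2.17.0, and sequences were read from the GENCODE M21 transcripts. Genes named came from the 10 highest and 10 lowest calls per contrast (mean of 1 CPM or more, same sign in 3 letters), the 10 smallest p over titles, called members of 6 lists, up to 4 members of each other list, and a panel. Xlr3a, Mid1-ps1 and the families summed were chosen after their values were seen. Members and lists were chosen with earlier results of these data known. Alternatives used DESeq2 1.42.0, limma 3.58.1 voom, other filters and scaling, all 15 libraries, and each library or letter left out. The model was tested on simulated data, with no result given here.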

Additional observations from a re-analysis of the deposited data

How the results depend on the processing

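In the order LPS against CD40, CpG against CD40, LPS against CpG and all titles together, calls numbered 44, 27, 45 and 79. Without the letter block they numbered 3, 2, 0 and 0. With no filter on low counts they numbered 144, 85, 102 and about 2.2e+02. Under limma voom they numbered 120, 53, 91 and 160, and under DESeq2 83, 50, 64 and 130. With all 15 libraries in the fit they numbered 0, 0, 1 and 0, and 1161 for letter against 6919. With genes that have a near-identical copy left out, an alternative added after seeing the data, they numbered 13, 14, 16 and 40. Leaving out libraries or letters gave 23 to 85, 21 to 43, 28 to 81 and 40 to 100 calls, and 3264 to 6739 for letter. The exact permutation test of the immunoglobulin share gave p = 0.843 without the block and 0.167 without any letter, where 0.167 is the smallest p possible. The cause of these shifts was not tested. RLE size factors, fitting only the 6 libraries compared and leaving out immunoglobulin genes kept each count within 1.5 times. So did summing the near-identical families named above, also added after seeing the data. Of 76 called gene and contrast pairs named, 0 reversed, 34 stayed called in every leave-out, 71 were lost without the block and 75 with all 15 libraries. Of 109 uncalled genes followed, 14 were called under at least 1 alternative. Tlr4, a gene of a few CPM, had 733 counts over the 9 libraries, and an effect of depth on such genes was not tested.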
